A study of Mus musculus with 11 samples.

Results

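A list of 53 cell cycle and DNA replication genes was examined by bulk RNA sequencing in CD4+ T cells sorted from mouse kidneys 2 days after ischemia reperfusion injury (IRI). The genes were taken by symbol from a table of 35814 gene symbols, and all 53 symbols were found. The list holds genes of S phase and mitosis, chosen by function and not by a threshold on these values. It was chosen with earlier results of these data known. The study deleted kinases of the NFκB pathway in T cells. Libraries came from 3 CD4cre mice, which carry a Cre recombinase under the CD4 promoter, were labelled WT and served as controls, from 5 CD4IKK1Δ mice, which combine this Cre with a floxed *Chuk* gene (the gene of IKK1), and from 3 CD4NIKΔ mice, which combine it with a floxed *Map3k14* gene (the gene of NIK). All mice were C57BL/6 males of 8 to 12 weeks, had both renal pedicles clamped for 45 min and gave 1 library each. CD4 promoter-driven Cre is active from a thymic stage that also gives rise to CD8+ T cells. The cells were enriched with magnetic beads, sorted, and their RNA was amplified before sequencing.

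A dividing T cell first licenses its replication origins in G1, when CDC6 and CDT1 load the MCM2-7 helicase on DNA. E2F transcription factors and cyclin E-CDK2 then start S phase, in which nucleotides are made and the genome is copied. In G2 and mitosis, cyclin A and cyclin B bind CDK1, condensin and topoisomerase II shape the chromosomes, and the spindle and kinetochores pull them apart. Resting T cells hold few of these transcripts, and stimulation through the T cell receptor and CD28 drives them into the cycle.

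Many of these genes share short promoter elements. E2F sites are known from S phase genes, and the cell cycle homology region (CHR, read by the DREAM and MuvB complexes) together with CCAAT boxes (read by NF-Y) from mitotic genes. Promoters from 250 bases before to 50 bases after the start were available from RefSeq (GRCm38.p6) for 42 of the 53 genes. They were searched on both strands for the CHR (TTTGAA), for 4 forms of the E2F site (TTTCCCGC, TTTGGCGC, TTTCGCGC, TTTGCCGC) and for CCAAT. Matches of different forms were allowed to overlap. The CHR was found in 22 of the 42 promoters (52.4%) and in 20.2% of the promoters of all 27025 genes of the table. An E2F form was found in 9 of 42 (21.4%) and in 2.6% of all promoters, and CCAAT in 32 of 42 (76.2%) and in 41.1%. The CHR and CCAAT stood together in 21 of 42 (50%) against 7.97%. By role, 6 of 7 promoters of mitotic cyclins, kinases and protein degradation held the CHR, as did 4 of 4 of chromosome structure and cohesion, and 6 of 8 promoters of origin licensing and the helicase held an E2F form. None of the 6 promoters of nucleotide supply and the replication fork held the CHR letters in this window. These matches describe letters, not occupied sites. The upstream stretches of 4 members are shown, 2 mitotic genes (*Cdk1*, the mitotic kinase, and *Ccnb2*, cyclin B2) and 2 helicase genes (*Mcm5* and *Mcm6*), as examples of a role in which most promoters held the CHR and of one in which most held an E2F form. Each is printed 5′ to 3′ on the strand of its gene and lies before the RefSeq start without touching an annotated exon, and capitals mark the matches. In *Cdk1* (minus strand, chr10:69188773-69188922 of GRCm39, in no exon but within the annotated extent of the gene, which begins further upstream) these are TTTCGCGC, TTTGAA and 2 CCAAT boxes read as ATTGG. In *Ccnb2* (minus strand, chr9:70328875-70329016, outside genes) they are TTTGAA and 2 CCAAT boxes. In *Mcm5* (plus strand, chr8:75835957-75836136, outside genes) TTTCGCGC overlaps an opposite-strand TTTGGCGC, with 2 CCAAT boxes further down. In *Mcm6* (minus strand, chr1:128287517-128287622, outside genes) TTTGGCGC overlaps an opposite-strand TTTCGCGC.
Cdk1: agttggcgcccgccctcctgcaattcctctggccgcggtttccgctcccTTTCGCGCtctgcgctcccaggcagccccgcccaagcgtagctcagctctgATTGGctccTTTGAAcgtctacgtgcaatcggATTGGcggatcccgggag
Ccnb2: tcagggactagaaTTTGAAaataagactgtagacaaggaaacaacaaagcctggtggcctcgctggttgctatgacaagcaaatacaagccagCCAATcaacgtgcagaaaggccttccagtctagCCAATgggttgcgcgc
Mcm5: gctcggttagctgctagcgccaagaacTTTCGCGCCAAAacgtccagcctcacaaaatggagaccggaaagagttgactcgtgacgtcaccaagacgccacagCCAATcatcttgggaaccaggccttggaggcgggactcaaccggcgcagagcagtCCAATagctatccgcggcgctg
Mcm6: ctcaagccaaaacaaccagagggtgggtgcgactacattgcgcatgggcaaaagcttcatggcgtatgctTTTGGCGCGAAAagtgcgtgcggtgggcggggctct

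Expression was given as estimated counts per gene, which summed to between 15751632 and 25737046 per library. Values are printed as CPM (counts scaled to a common library size with TMM factors), and 3 counts, used as the floor, were worth 0.115 to 0.211 CPM, a limit for counting error only. Values of different genes are not compared, since CPM do not account for transcript length. The libraries differed in T cell transcripts. The Pan T score, the mean log2 CPM of 17 T cell markers such as *Cd3e*, *Trac* and *Lck*, was 5.92 to 6.61 in CD4cre, 7.78 to 8.38 in CD4NIKΔ, and -0.03, 2.47, 5.49, 4.49 and 4.63 in CD4IKK1Δ replicates 1 to 5. The summed CPM of these markers ran from 1814 to 3255 in CD4cre, from 219.5 to 1641 in CD4IKK1Δ and from 8734 to 12741 in CD4NIKΔ, and no marker was at 0 in a whole group. Replicates 1 and 2 of CD4IKK1Δ, with 41 and 868 counts of the T cell receptor constant regions (5277 to 111648 elsewhere), stood apart and go against the label of CD4+ T cells. The mean log2 CPM of 10 neuronal markers was 7.07 ± 0.15 (SD, n = 3) in CD4cre, 7.30 ± 0.23 (n = 5) in CD4IKK1Δ and 5.69 ± 0.59 (n = 3) in CD4NIKΔ, with summed CPM of 2120 to 2526, 2548 to 3059 and 671.8 to 1397 and none at 0. Transcripts typical of other cells were thus present in all 3 groups. *Chuk* had 258 to 588 counts in CD4IKK1Δ and 325 to 683 in CD4cre, and *Map3k14* had 232 to 626 in CD4NIKΔ and 294 to 506 in CD4cre. Neither level followed the label, and the counts do not resolve the floxed exons.

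The cell cycle genes were highest in all 3 CD4NIKΔ libraries. Together they gave 1324, 1226 and 1241 CPM in CD4NIKΔ replicates 1 to 3, 411, 314 and 294 CPM in CD4cre, and 206, 204, 387, 184 and 232 CPM in CD4IKK1Δ replicates 1 to 5. The mean log2 CPM over the 53 genes was 2.87 ± 0.10 (SD, n = 3) in CD4NIKΔ, 0.66 ± 0.26 (n = 3) in CD4cre and -0.04 ± 0.65 (n = 5) in CD4IKK1Δ. CD4NIKΔ did not overlap with either group, whereas replicate 3 of CD4IKK1Δ (1.06) was above every CD4cre library and the other 4 (-0.55 to 0.00) were below them. Of the 53 genes, 48 or 49 exceeded the floor in each CD4NIKΔ library, 40 to 44 in CD4cre and 31 to 42 in CD4IKK1Δ, and *Ube2c* was at 0 in all 11 libraries. Markers of CD8+ T cells and NK cells stood in the same order of groups, with 8 markers such as *Cd8a*, *Prf1* and *Gzmb* summing to 29.5 to 87.8 CPM in CD4cre, 0.640 to 22.9 in CD4IKK1Δ and 283 to 421 in CD4NIKΔ, and *Ncr1* at 0 in CD4cre and CD4IKK1Δ. Of these 8, 7 could be tested in CD4NIKΔ against CD4cre and 3 were higher, and 6 of 7 were lower in CD4IKK1Δ than in CD4NIKΔ. Their part in the result was not tested. In bulk RNA, fewer dividing cells and less RNA per cell cannot be told apart.

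**Figure D1:**
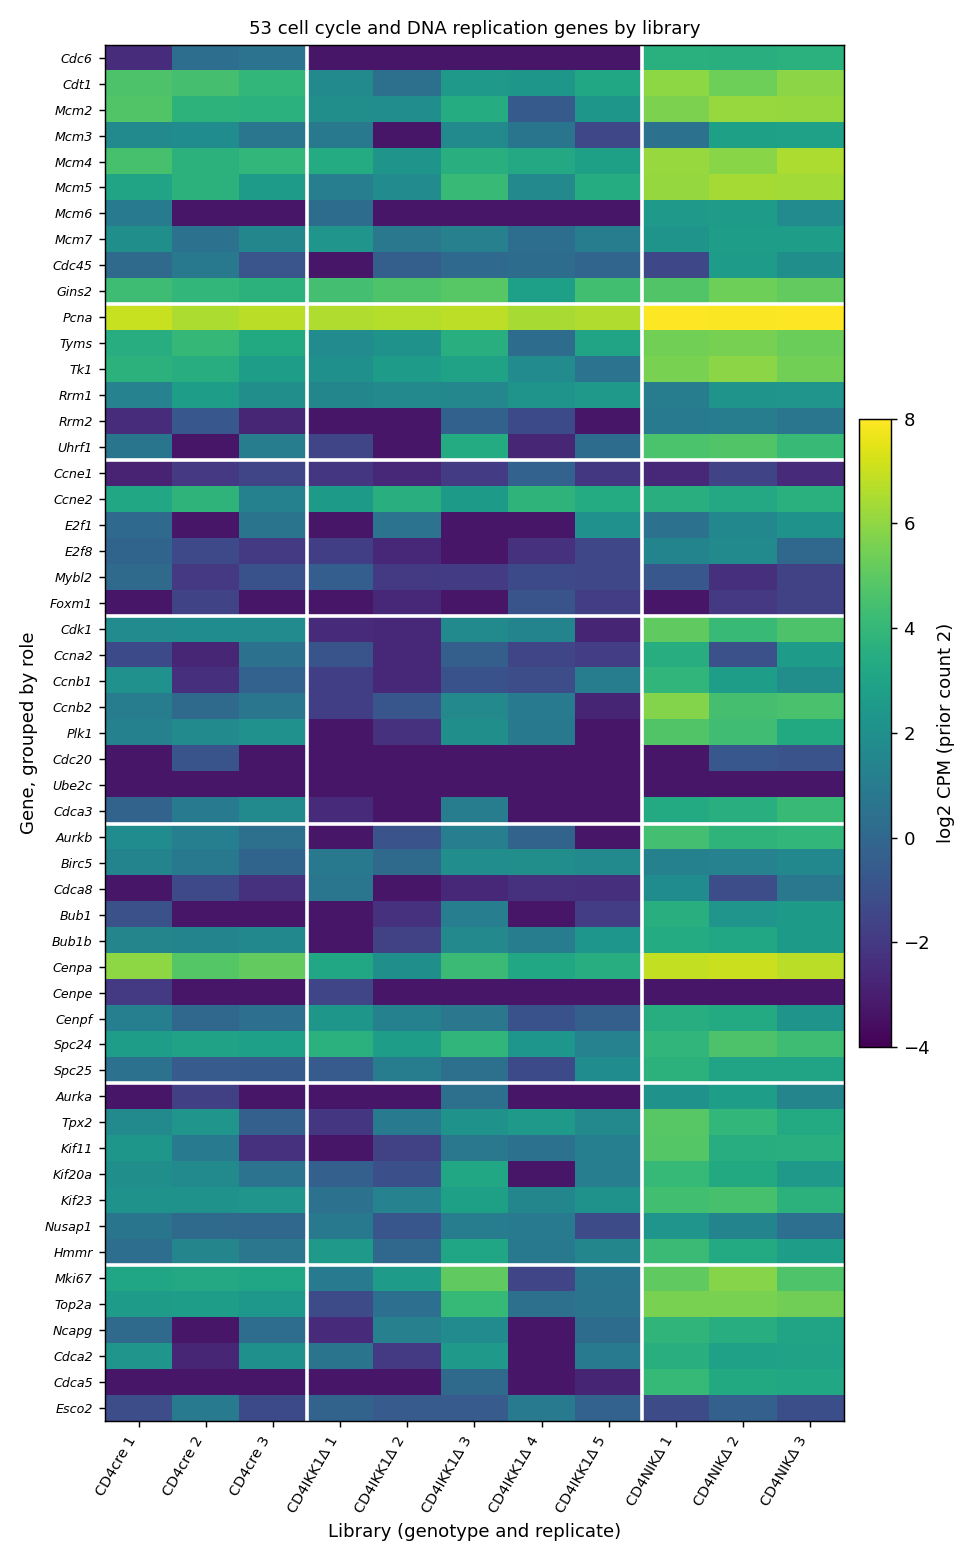
Log2 CPM (prior count 2, colour) of the 53 genes (rows, grouped by role) in the 11 libraries (columns). The 3 CD4NIKΔ columns are brightest in most rows, and in 29 of the 50 genes with counts in CD4IKK1Δ the highest of its 5 libraries is replicate 3.

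**Figure D2:**
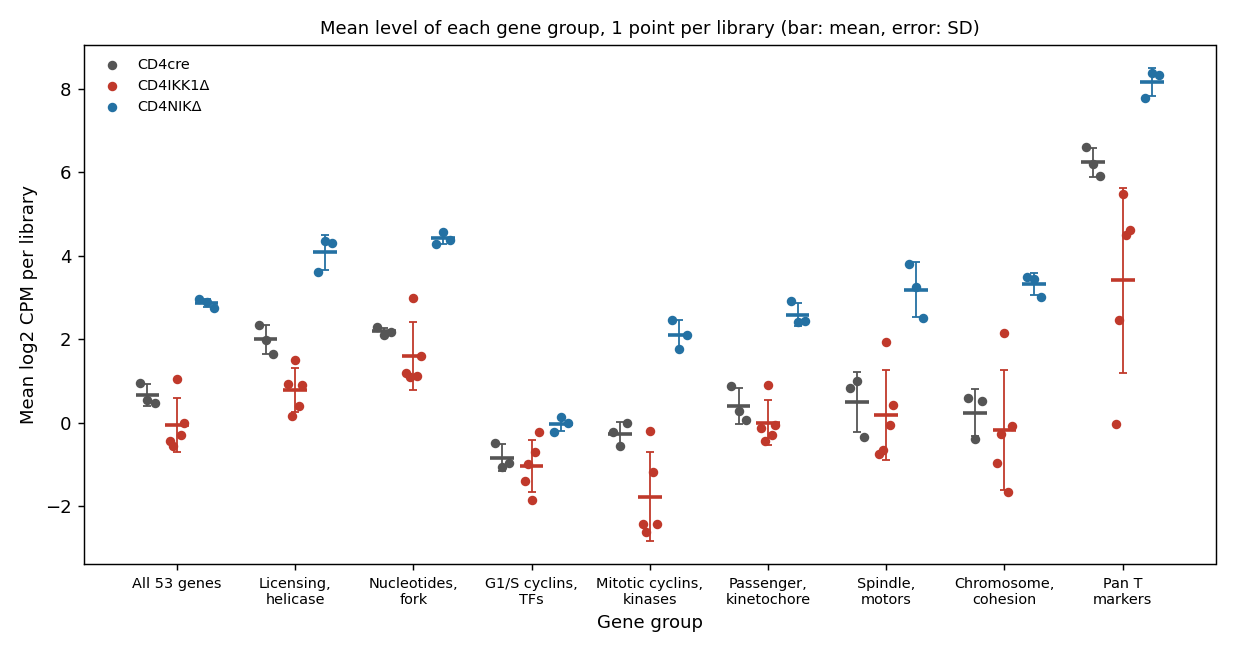
Mean log2 CPM of each role group (x axis), 1 point per library, with the mean and SD of the 3 CD4cre, 5 CD4IKK1Δ and 3 CD4NIKΔ libraries. Over all 53 genes the means are 0.66, -0.04 and 2.87, and CD4NIKΔ is highest in each group, with the smallest distance for the G1/S cyclins and transcription factors.

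The first question was whether deletion of NIK goes along with a different cell cycle program than CD4cre alone. Of the 53 genes, 45 passed edgeR's expression filter between CD4NIKΔ and CD4cre, and 29 of the 53 were higher in CD4NIKΔ (edgeR's quasi-likelihood test, FDR under 0.05 and more than 2-fold), whereas 0 were lower. Among all 15209 genes tested, 10.4% were called higher and 6.99% lower. At an unadjusted p under 0.05, 34 of the 53 were higher and 0 lower (19.0% and 17.8% of all genes), and DESeq2 called 35 higher and 0 lower (9.51% and 7.10%), with 38 and 0 at its unadjusted p (15.0% and 13.6%). The median log2 fold change of the tested members was 2.30, and that of all genes tested -0.02. Of the 45, 13 passed the filter through the CD4NIKΔ libraries alone, which favours a higher value there. The 6 of these that were called, *Cdc6*, *Uhrf1*, *Bub1*, *Aurka*, *Ncapg* and *Cdca5*, are therefore given as values and not read as support. The other 23 calls were among 30 genes with 10 or more counts in enough libraries of each group. In 36 of the 45 every CD4NIKΔ library was above every CD4cre library (23.0% of all genes tested). This count and the median were taken over all 45, with the 13 left in. The count of 29 fell to 14 without CD4NIKΔ replicate 2, to 16 without CD4NIKΔ replicate 3, to 16 without CD4cre replicate 3 and to 11 when all 11 libraries shared 1 estimate of the spread. In that fit the FDR was 0.102 for *Top2a*, 0.145 for *Cdk1*, 0.291 for *Mki67*, 0.131 for *Aurkb*, 0.0603 for *Tyms* and 0.0938 for *Mcm2*, and these calls were lost. Their log2 fold changes there were 2.94, 2.90, 2.16, 2.86, 1.82 and 1.84. For the fits with other libraries the share of all genes called is not given here, so a loss particular to the members cannot be told apart. With the Pan T score as a covariate, 0 of the 53 and 0 of all genes were called, and 8 of the 53 were higher and 0 lower at an unadjusted p under 0.05 (2.81% and 2.27% of all genes). In that fit the median was 2.06, but the Pan T scores of the 2 groups did not overlap, and genotype and T cell content cannot be told apart.

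The second question was the same for IKK1. Of the 38 genes tested between CD4IKK1Δ and CD4cre, 0 were called, as were 0 of all 15653 genes (0%). At an unadjusted p under 0.05, 4 were lower and 0 higher (8.91% and 7.65% of all genes), and DESeq2 called 2 lower and 0 higher (2.18% and 0.174%), with 6 and 0 at its unadjusted p (7.89% and 6.42%). The median log2 fold change was -0.30, against 0.02 for all genes tested. Of the 38, 5 (*Cdk1*, *Ccnb2*, *Plk1*, *Cdca3* and *Aurkb*) passed the filter through the CD4cre libraries alone, which favours a lower value in CD4IKK1Δ, and 5 (*Cdc45*, *Kif11*, *Ncapg*, *Cdca2* and *Esco2*) through CD4IKK1Δ alone. Without replicate 3 of CD4IKK1Δ the median was -1.02, and without replicates 1 and 2, which had few T cell transcripts, it was 0.06. In 5 of the 38 tested genes, which were *Cdt1*, *Mcm2*, *Mcm4*, *Cdk1* and *Cenpa*, every CD4IKK1Δ library was below every CD4cre library (8.44% of all genes tested). The same held for *Cdc6*, which was not tested here. With the Pan T score as a covariate the median was 0.39, with 0 genes called, and 1 higher and 2 lower at an unadjusted p under 0.05 (4.03% and 3.32% of all genes). Again the Pan T scores of the 2 groups did not overlap, and genotype and T cell content cannot be told apart.

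In the direct comparison of the deletions, fitted on all 11 libraries, 25 of the 53 genes were lower in CD4IKK1Δ than in CD4NIKΔ and 0 higher, of 47 tested. Among all 16546 genes tested, 18.5% were called lower and 14.8% higher. DESeq2 called 28 lower and 0 higher (14.8% and 10.6%), with 34 and 0 at its unadjusted p (20.0% and 17.0%), and at an unadjusted p under 0.05 edgeR gave 31 lower and 0 higher (25.7% and 23.8%). The median was -3.03, against 0.06 for all genes. Of the tested genes, 15 passed the filter through CD4NIKΔ alone, which favours a lower value in CD4IKK1Δ. The 10 of these among the 25, *Cdc6*, *E2f8*, *Cdk1*, *Ccnb1*, *Ccnb2*, *Plk1*, *Cdca3*, *Aurkb*, *Bub1* and *Cdca5*, are likewise given as values only. In 30 of the 47 every CD4IKK1Δ library was below every CD4NIKΔ library (24.6% of all genes). This count and the median were taken over all 47, with the 15 left in. Without CD4IKK1Δ replicates 1 and 2, 24 were called. With the Pan T score as a covariate, 3 were called, *Mcm4*, *Pcna* and *Cenpa* (2.14% of all genes), and 11 were lower and 1 higher at an unadjusted p under 0.05 (10.0% and 14.1%). The Pan T scores of the compared groups did not overlap, so here too genotype and T cell content cannot be told apart. This comparison shares its CD4NIKΔ libraries with the first and its CD4IKK1Δ libraries with the second, so the 3 sets of values are not independent.

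**Figure D3:**
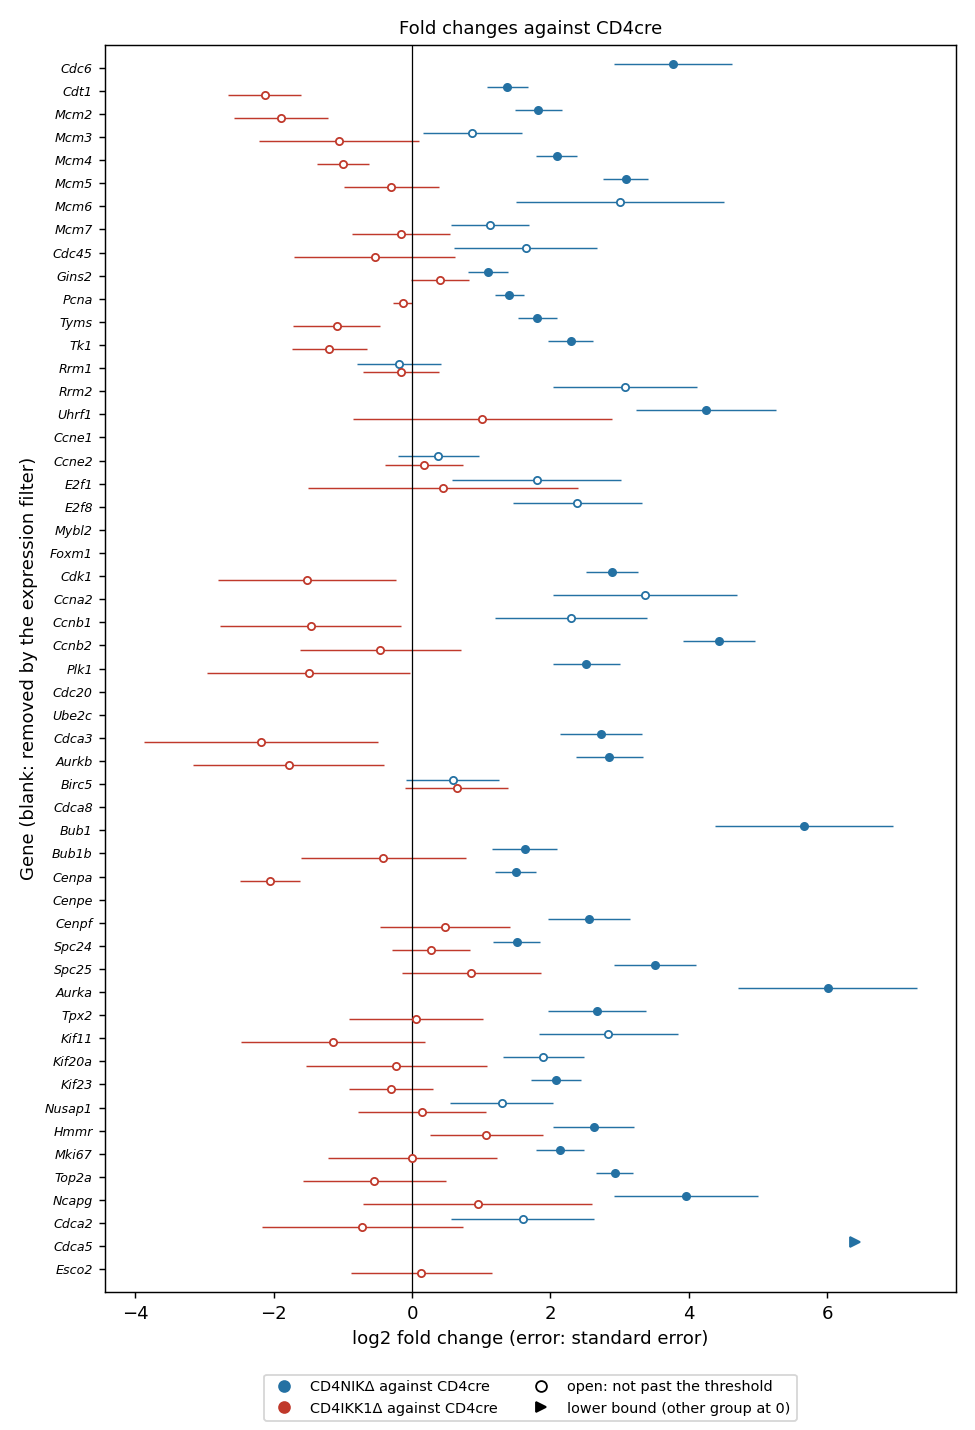
Log2 fold change of the 53 genes (y axis, by role) against CD4cre, with the standard error, for CD4NIKΔ (blue) and CD4IKK1Δ (red), filled where past the threshold. *Cdca5* is drawn at its lower bound. In CD4NIKΔ, 29 genes are filled, all to the right of 0, and in CD4IKK1Δ 0 are filled.

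Origin licensing and the helicase comprised 10 genes. Of these, 6 were higher in CD4NIKΔ than in CD4cre (*Cdc6*, *Cdt1*, *Mcm2*, *Mcm4*, *Mcm5* and *Gins2*, median log2 fold change of the 10 tested 1.73), and 4 did not pass (*Mcm3* 0.87, *Mcm6* 3.00, *Mcm7* 1.13, *Cdc45* 1.64). *Mcm5*, a subunit of the helicase ring (chr8:75836140-75856231, plus strand), had 69.5, 82.6 and 80.3 CPM in CD4NIKΔ, 7.81, 13.1 and 6.11 CPM in CD4cre and 2.11, 3.41, 17.3, 3.08 and 10.7 CPM in CD4IKK1Δ. Every CD4NIKΔ library was above the other 8, and CD4IKK1Δ overlapped with CD4cre on both sides. The log2 fold change was 3.09 in CD4NIKΔ against CD4cre (standard error 0.32, FDR 0.00239), -0.30 in CD4IKK1Δ against CD4cre (standard error 0.68, FDR 0.900) and -3.40 between CD4IKK1Δ and CD4NIKΔ (FDR 0.000935). *Mcm2*, another ring subunit, had 48.9, 71.6 and 68.2 CPM in CD4NIKΔ, 26.6, 13.5 and 12.6 CPM in CD4cre and 3.71, 3.62, 10.8, 0.546 and 4.99 CPM in CD4IKK1Δ. The 3 groups did not overlap in this gene. It was higher in CD4NIKΔ than in CD4cre (log2 fold change 1.82, FDR 0.0130, not called without CD4NIKΔ replicate 2 or 3) and lower in CD4IKK1Δ than in CD4NIKΔ (-3.73, FDR 0.000667), whereas -1.89 against CD4cre gave an FDR of 0.208.

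*Mcm4* had 71.4, 57.4 and 93.0 CPM in CD4NIKΔ, 23.0, 13.1 and 15.5 CPM in CD4cre and 10.4, 4.56, 11.6, 9.38 and 6.92 CPM in CD4IKK1Δ, again without overlap. Its log2 fold changes were 2.09 (FDR 0.00576) for CD4NIKΔ and -1.0 (FDR 0.228) for CD4IKK1Δ, both against CD4cre, and -3.10 (FDR 5.49e-05) between the deletions. *Mcm6*, whose promoter stretch carries an overlapping pair of E2F forms like that of *Mcm5*, was low, with 5.47, 6.09 and 3.38 CPM in CD4NIKΔ, 1.81, 0 and 0 CPM in CD4cre, and 1.09 CPM in CD4IKK1Δ replicate 1 with 0 in its other 4 libraries. CD4NIKΔ was above all other libraries, but its fold changes did not pass (log2 fold change 3.00 against CD4cre, standard error 1.51, FDR 0.185, and -4.52 for CD4IKK1Δ against CD4NIKΔ, FDR 0.0689). The first was called without CD4cre replicate 1, the only CD4cre library with counts of *Mcm6* (FDR 0.00838). The second was called without CD4IKK1Δ replicate 1, the only CD4IKK1Δ library with counts (FDR 0.0109), without replicates 1 and 2 together (FDR 0.0198), without CD4cre replicate 1 (FDR 0.0448), with the replicate number as a block (FDR 0.0268) and with only both deletions in the fit (FDR 0.0393). *Mcm6* passed the filter through CD4NIKΔ alone in both comparisons, which favours these directions, and leaving out the only library with counts sets its group to 0, so these calls are not read as support.

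Of the helicase loaders, *Cdc6* (chr11:98798507-98814766, plus strand) had 12.2, 11.7 and 12.7 CPM in CD4NIKΔ, 0.0770, 1.17 and 1.40 CPM in CD4cre and 0 counts in all 5 CD4IKK1Δ libraries. It was higher in CD4NIKΔ than in CD4cre (log2 fold change 3.77, FDR 0.0226), and at least 76.1-fold lower in CD4IKK1Δ than in CD4NIKΔ when the floor of 3 counts per library is put in place of 0 (FDR 0.000280). It entered both tests through the CD4NIKΔ libraries alone. *Cdt1* had 63.2, 40.8 and 60.8 CPM in CD4NIKΔ, 25.2, 22.2 and 15.3 CPM in CD4cre and 3.14, 1.26, 5.39, 5.06 and 8.95 CPM in CD4IKK1Δ. The groups did not overlap, with a log2 fold change of 1.38 in CD4NIKΔ (FDR 0.0183) and -2.13 in CD4IKK1Δ (standard error 0.52, FDR 0.105), both against CD4cre, and -3.52 between the deletions (FDR 0.000172). DESeq2 gave an adjusted p of 0.00300 for *Cdt1* in CD4IKK1Δ against CD4cre, and edgeR one of 0.0394 with 10 counts required in every library, so this call depended on the tool and the filter.

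Nucleotide supply and the replication fork comprised 6 genes, of which 4 were higher in CD4NIKΔ than in CD4cre (*Pcna*, *Tyms*, *Tk1* and *Uhrf1*) and 0 were called in CD4IKK1Δ against CD4cre. *Pcna*, the sliding clamp of the DNA polymerases, had 282, 246 and 346 CPM in CD4NIKΔ, 126, 91.4 and 109 CPM in CD4cre and 96.2, 103, 113, 86.2 and 95.5 CPM in CD4IKK1Δ. All CD4NIKΔ libraries were above the rest, and CD4IKK1Δ lay within or close to the CD4cre range. The log2 fold change was 1.41 in CD4NIKΔ (standard error 0.21, FDR 0.00638) and -0.14 in CD4IKK1Δ (standard error 0.14, FDR 0.699) against CD4cre, and -1.55 between the deletions (FDR 3.84e-05). *Tyms* (thymidylate synthase) had 43.9, 46.4 and 39.1 CPM in CD4NIKΔ, 11.1, 15.7 and 9.66 CPM in CD4cre and 3.33, 4.35, 11.6, 1.09 and 8.05 CPM in CD4IKK1Δ. Its log2 fold changes were 1.81 (FDR 0.00743), -1.09 (FDR 0.417) and -2.92 (FDR 0.00106) in the same 3 comparisons.

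*Tk1* (thymidine kinase) had 48.4, 60.5 and 43.4 CPM in CD4NIKΔ, 13.2, 11.0 and 6.41 CPM in CD4cre and 3.97, 6.13, 7.43, 3.38 and 1.39 CPM in CD4IKK1Δ. The log2 fold change was 2.29 in CD4NIKΔ (FDR 0.00550) and -1.20 in CD4IKK1Δ (FDR 0.303), both against CD4cre, and -3.50 between the deletions (FDR 0.000146). The subunits of ribonucleotide reductase, which makes deoxynucleotides, gave no call in these fits. The large subunit *Rrm1* had 1.95, 4.52 and 4.72 CPM in CD4NIKΔ, 2.42, 6.42 and 3.70 CPM in CD4cre and 2.75 to 5.53 CPM in CD4IKK1Δ (median 2.99), and the 3 groups overlapped. Its log2 fold change was -0.19 in CD4NIKΔ (standard error 0.61) and -0.16 in CD4IKK1Δ (standard error 0.55). The small subunit *Rrm2* had 1.79, 2.01 and 1.55 CPM in CD4NIKΔ, 0.0770, 0.486 and 0.0501 CPM in CD4cre and 0, 0, 0.737, 0.298 and 0 CPM in CD4IKK1Δ. It was tested through CD4NIKΔ alone. With a log2 fold change of 3.08 in CD4NIKΔ against CD4cre, it missed the threshold in edgeR (FDR 0.0649) and passed it in DESeq2 (adjusted p = 0.0232). Without CD4cre replicate 2 the edgeR value was 4.67 (FDR 0.0506). Between the deletions *Rrm2* was also tested through CD4NIKΔ alone, and was called without CD4IKK1Δ replicate 3 (-4.44, FDR 0.0374). *Uhrf1*, which helps to copy DNA methylation behind the fork, had 23.9, 26.6 and 17.6 CPM in CD4NIKΔ and at most 2.00 CPM in CD4cre (log2 fold change 4.25, FDR 0.0251, tested through CD4NIKΔ alone), while CD4IKK1Δ replicate 3 had 10.4 CPM and its other 4 libraries at most 1.08 CPM.

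The G1/S cyclins and transcription factors were the group with fewest detected genes. *Ccne1* (cyclin E1), *Mybl2* and *Foxm1*, transcription factors of S phase and of G2 and mitosis, had at most 1.00 CPM in any library and were tested in no comparison. *Ccne2* (cyclin E2) had 11.3, 9.48 and 12.3 CPM in CD4NIKΔ, 9.01, 13.8 and 2.35 CPM in CD4cre and 5.70, 11.5, 5.73, 13.8 and 10.4 CPM in CD4IKK1Δ. The groups overlapped, with log2 fold changes of 0.38 (standard error 0.58), 0.17 (standard error 0.56) and -0.21 (standard error 0.51) in the 3 comparisons. *E2f1* had 1.28, 2.95 and 4.37 CPM in CD4NIKΔ, 0.962, 0 and 1.45 CPM in CD4cre, and 0, 1.36, 0, 0 and 4.09 CPM in CD4IKK1Δ. It was not called (log2 fold change 1.80 in CD4NIKΔ, standard error 1.22, FDR 0.319, and 0.45 in CD4IKK1Δ, standard error 1.95). *E2f8*, a repressor of the E2F family, had 0.916 to 3.24 CPM in CD4NIKΔ and at most 0.808 CPM elsewhere and was lower in CD4IKK1Δ than in CD4NIKΔ (log2 fold change -4.11, FDR 0.00909, tested through CD4NIKΔ alone).

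The mitotic cyclins, kinases and genes of protein degradation comprised 8 genes. Of these, 4 were higher in CD4NIKΔ than in CD4cre (*Cdk1*, *Ccnb2*, *Plk1* and *Cdca3*), and the 6 that could be tested were called lower in CD4IKK1Δ than in CD4NIKΔ (median log2 fold change -4.28). Of these 6, 5 (*Cdk1*, *Ccnb1*, *Ccnb2*, *Plk1* and *Cdca3*) passed the filter through the CD4NIKΔ libraries alone, so that their direction was close to fixed by the filter, and the count of 6 is not read as support. *Cdk1* had 34.0, 17.3 and 24.9 CPM in CD4NIKΔ, 3.35, 3.50 and 3.30 CPM in CD4cre and 0.0640, 0.0524, 3.18, 2.53 and 0.0450 CPM in CD4IKK1Δ. CD4IKK1Δ fell into libraries near the CD4cre level (replicates 3 and 4) and libraries under the floor (replicates 1, 2 and 5), and replicate 5 had a Pan T score of 4.63. The log2 fold change was 2.89 in CD4NIKΔ (standard error 0.38, FDR 0.00429), -1.52 in CD4IKK1Δ (standard error 1.29, FDR 0.624) and -4.42 between the deletions (FDR 0.00817). Without CD4IKK1Δ replicate 3 the second value was -2.31 (FDR 0.444).

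*Ccnb2* had 55.2, 22 and 23.5 CPM in CD4NIKΔ, 2.00, 1.02 and 1.55 CPM in CD4cre and 0.192, 0.472, 3.01, 1.84 and 0.0450 CPM in CD4IKK1Δ. Its log2 fold change of 4.44 in CD4NIKΔ (standard error 0.52, FDR 0.00317) compares with -0.46 in CD4IKK1Δ (standard error 1.17, FDR 0.913). Between the deletions it was -4.90 (FDR 0.00123). *Ccnb1* (cyclin B1) varied more, with 14.7, 6.39 and 3.67 CPM in CD4NIKΔ, 4.12, 0.0972 and 0.751 CPM in CD4cre and 0.0524 to 1.98 CPM in CD4IKK1Δ (median 0.347). The groups CD4NIKΔ and CD4cre overlapped (log2 fold change 2.30, standard error 1.10, FDR 0.167, tested through CD4NIKΔ alone, and 4.25 with an FDR of 0.0401 without CD4cre replicate 1, the highest of its group), and the difference between the deletions was called (-3.76, FDR 0.0179) but not without CD4IKK1Δ replicates 1 and 2. *Ccna2* (cyclin A2) had 11.0, 0.393 and 5.99 CPM in CD4NIKΔ, 0.308, 0.0486 and 1.30 CPM in CD4cre and 0.0524 to 0.681 CPM in CD4IKK1Δ (median 0.248). Replicate 2 of CD4NIKΔ was as low as the control libraries in this gene, and the fold change against CD4cre missed the threshold in edgeR (3.37, standard error 1.33, FDR 0.103) and passed it in DESeq2 (adjusted p = 0.0175). *Plk1*, the polo-like kinase of mitotic entry, had 26.3, 19.8 and 9.59 CPM in CD4NIKΔ and 2.31, 3.11 and 4.15 CPM in CD4cre (log2 fold change 2.52, FDR 0.0148). *Cdca3*, a trigger of mitotic entry, had 10.1, 11.7 and 17.2 CPM in CD4NIKΔ, 0.770, 1.90 and 3.10 CPM in CD4cre and 0.0640, 0, 2.04, 0 and 0 CPM in CD4IKK1Δ. It had a log2 fold change of 2.73 in CD4NIKΔ (FDR 0.0198) and, in CD4IKK1Δ against CD4cre, -2.18 (standard error 1.69, FDR 0.582), the lowest of the 38 genes tested there and one that passed the filter through CD4cre alone. Without CD4IKK1Δ replicate 3 it was -6.59 (FDR 0.101). *Cdc20*, an activator of the anaphase-promoting complex, had at most 0.491 CPM in any library and was not tested.

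The chromosomal passenger complex, checkpoint and kinetochores comprised 10 genes, of which 7 were higher in CD4NIKΔ than in CD4cre (*Aurkb*, *Bub1*, *Bub1b*, *Cenpa*, *Cenpf*, *Spc24* and *Spc25*). *Aurkb*, the kinase of the passenger complex, had 21.1, 13.7 and 15.4 CPM in CD4NIKΔ, 3.43, 2.19 and 1.25 CPM in CD4cre and 0, 0.419, 2.10, 0.794 and 0 CPM in CD4IKK1Δ. Its log2 fold change was 2.85 in CD4NIKΔ (standard error 0.48, FDR 0.00956), -1.78 in CD4IKK1Δ (standard error 1.38, FDR 0.582) and -4.64 between the deletions (FDR 0.00466). It passed the filter through CD4cre alone in the second of these comparisons and through CD4NIKΔ alone in the third. The second value was -2.88 (FDR 0.357) without CD4IKK1Δ replicate 3. *Birc5* (survivin), of the same complex, had 2.34, 2.36 and 2.96 CPM in CD4NIKΔ, 2.54, 1.70 and 0.801 CPM in CD4cre and 1.73, 0.996, 3.57, 3.72 and 3.15 CPM in CD4IKK1Δ. The groups overlapped, and the log2 fold changes were 0.58 (standard error 0.67), 0.64 (standard error 0.74) and 0.05 (standard error 0.63) in the 3 comparisons. The first ran from 0.28 without CD4cre replicate 3 to 1.00 without CD4cre replicate 1, and the second from 0.31 to 1.07 without the same libraries. Thus 2 genes of 1 complex gave different values in CD4NIKΔ, and the difference between them was not tested.

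*Cenpa*, the histone variant that marks centromeres, had 120, 129 and 109 CPM in CD4NIKΔ, 62.5, 28.6 and 34.5 CPM in CD4cre and 8.71, 3.82, 18.1, 9.03 and 10.9 CPM in CD4IKK1Δ. The groups did not overlap. It was higher in CD4NIKΔ than in CD4cre (log2 fold change 1.50, standard error 0.30, FDR 0.0162) and had the smallest FDR of the 38 genes tested in CD4IKK1Δ against CD4cre (-2.05, standard error 0.43, FDR 0.0898, DESeq2 adjusted p = 0.000498). With edgeR it was called there when all 11 libraries were in the fit (FDR 0.0384) and when 10 counts were required in every library (FDR 0.0276). Without CD4IKK1Δ replicates 1 and 2 the latter value was -1.73. *Bub1*, a checkpoint kinase, had 11.5, 4.62 and 5.71 CPM in CD4NIKΔ, and 0.385 CPM in CD4cre replicate 1 with 0 in its other 2 libraries (log2 fold change 5.66, standard error 1.28, FDR 0.0226). It passed the filter through CD4NIKΔ alone. Among the kinetochore subunits of the NDC80 complex, *Spc25* (log2 fold change 3.51, FDR 0.00950) and *Spc24* (1.51, FDR 0.0215) were higher in CD4NIKΔ. *Cdca8* (borealin) and the kinetochore motor *Cenpe* were not tested in CD4NIKΔ against CD4cre, and *Cenpe* had at most 0.256 CPM in any library.

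Spindle assembly and motors comprised 7 genes, with 4 higher in CD4NIKΔ than in CD4cre (*Aurka*, *Tpx2*, *Kif23* and *Hmmr*). *Aurka*, the kinase of the spindle poles, had 4.30, 6.54 and 2.61 CPM in CD4NIKΔ, 0, 0.194 and 0 CPM in CD4cre, and 1.25 CPM in CD4IKK1Δ replicate 3 with 0 in its other 4 libraries. Its log2 fold change in CD4NIKΔ was 6.01 (standard error 1.29, FDR 0.0196), and it too passed the filter through CD4NIKΔ alone. *Kif23*, a motor of the central spindle, was measured well in all groups, with 20.4, 22.9 and 13.2 CPM in CD4NIKΔ, 4.20, 4.33 and 4.66 CPM in CD4cre and 1.28, 2.41, 6.86, 2.78 and 4.36 CPM in CD4IKK1Δ. It was higher in CD4NIKΔ than in CD4cre (log2 fold change 2.08, standard error 0.36, FDR 0.0105) and lower in CD4IKK1Δ than in CD4NIKΔ (-2.40, FDR 0.00169). *Hmmr*, a spindle protein that binds hyaluronan, had 17.7, 9.98 and 6.20 CPM in CD4NIKΔ, 1.15, 2.67 and 1.60 CPM in CD4cre and 5.31, 0.891, 8.45, 1.69 and 2.70 CPM in CD4IKK1Δ. It had the highest log2 fold change of the tested genes in CD4IKK1Δ against CD4cre (1.07, standard error 0.81, FDR 0.574, and 0.55 without CD4IKK1Δ replicate 3). The motors *Kif11* and *Kif20a* gave log2 fold changes of 2.84 (FDR 0.0753) and 1.90 (FDR 0.0507) in CD4NIKΔ against CD4cre and were called in DESeq2. Of these, *Kif11* passed the filter through CD4NIKΔ alone, which favours a higher value there, and its DESeq2 call is not read as support. *Nusap1*, which bundles spindle microtubules, gave 1.29 (FDR 0.238).

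Chromosome structure and cohesion comprised 6 genes, of which 4 were higher in CD4NIKΔ than in CD4cre (*Mki67*, *Top2a*, *Ncapg* and *Cdca5*). *Top2a*, topoisomerase II alpha (chr11:98883769-98915062, minus strand), had 47.3, 48.0 and 41.9 CPM in CD4NIKΔ, 5.93, 6.61 and 5.21 CPM in CD4cre and 0.320, 1.21, 16.1, 1.24 and 1.44 CPM in CD4IKK1Δ. The CD4NIKΔ and CD4cre libraries were tightly grouped, whereas replicate 3 of CD4IKK1Δ was above CD4cre and its other 4 libraries below. Its log2 fold change of 2.93 in CD4NIKΔ had the smallest FDR of the 53 genes (standard error 0.27, FDR 0.00181, but 0.102 with all 11 libraries in the fit), with -0.54 in CD4IKK1Δ (standard error 1.04, FDR 0.873) and -3.49 between the deletions (FDR 0.0136). Without CD4IKK1Δ replicate 3 these were -2.48 (FDR 0.139) and -5.41 (FDR 3.445e-05).

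*Mki67*, the gene of the proliferation marker Ki-67 (chr7:135291513-135318299, minus strand), had 33.4, 56.3 and 26.0 CPM in CD4NIKΔ, 8.20, 9.23 and 8.36 CPM in CD4cre and 1.86, 5.92, 33.7, 0.248 and 1.48 CPM in CD4IKK1Δ. Replicate 3 of CD4IKK1Δ was thus within the CD4NIKΔ range, and its other 4 libraries were below CD4cre. The log2 fold change was 2.14 in CD4NIKΔ (standard error 0.35, FDR 0.00824), and 0.00 in CD4IKK1Δ (standard error 1.22, FDR 0.999), which became -1.85 without replicate 3. Between the deletions -2.16 was not called (FDR 0.144), but without CD4IKK1Δ replicate 3 it was -4.01 and called (FDR 0.00154). *Cdca5* (sororin, which protects cohesion between sister chromatids) had 16.3, 9.73 and 8.88 CPM in CD4NIKΔ and 0 counts in all 3 CD4cre libraries, so it was at least 84.8-fold higher in CD4NIKΔ against the floor of 3 counts per library (FDR 0.00278), again tested through CD4NIKΔ alone. In CD4IKK1Δ it had 1.02 CPM in replicate 3 and at most 0.0450 CPM in the other 4. *Esco2*, an acetyltransferase of cohesin, had 0.335, 0.688 and 0.352 CPM in CD4NIKΔ, 0.346, 1.85 and 0.300 CPM in CD4cre and 0.768, 0.576, 0.567, 1.89 and 0.764 CPM in CD4IKK1Δ. It had the highest value of the tested members in CD4IKK1Δ against CD4NIKΔ (log2 fold change 0.99, standard error 0.96, FDR 0.444), and 0.54 without CD4IKK1Δ replicate 4.

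**Figure D4:**
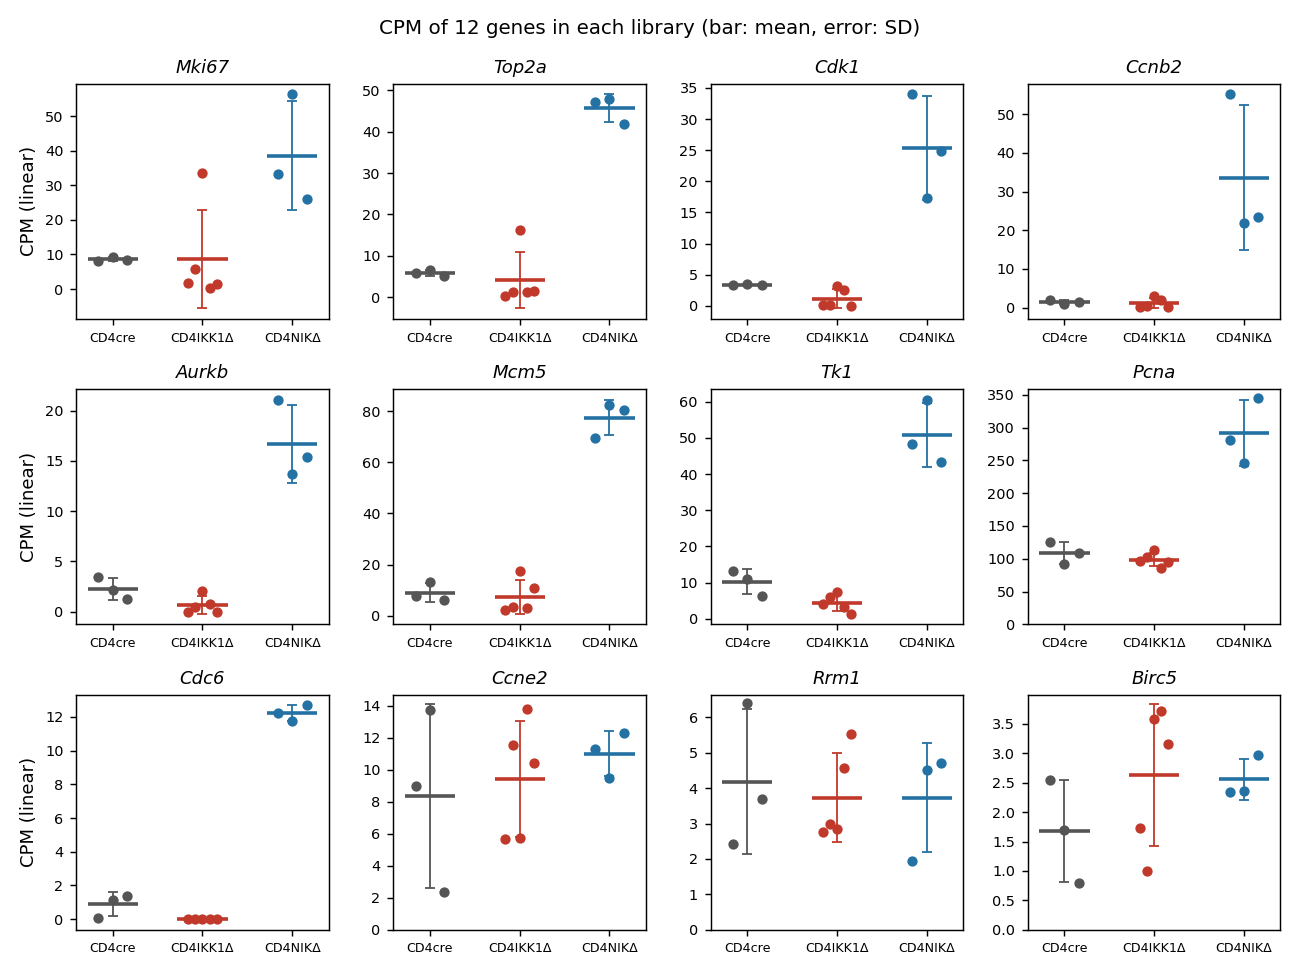
CPM (linear axes) of 12 of the genes in each library, with the mean and SD of the 3 CD4cre, 5 CD4IKK1Δ and 3 CD4NIKΔ libraries. In *Top2a* the CD4NIKΔ libraries sit between 41.9 and 48.0 CPM and CD4cre between 5.21 and 6.61 CPM, while CD4IKK1Δ spreads from 0.320 to 16.1 CPM with replicate 3 highest.

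Another 137 cell cycle genes, chosen with results of these data known, were read from the same fits. Of 126 tested, 51 were higher in CD4NIKΔ than in CD4cre and 2 lower (median log2 fold change 1.39), against 10.4% and 6.99% of all genes. Of the 126, 27 passed the filter through CD4NIKΔ alone, which favours a higher value there, and 7 of the 51 were among them, while 44 were among the 93 that passed in each group. In CD4IKK1Δ against CD4cre 0 of 120 were called (median -0.16). At an unadjusted p under 0.05, 15 were lower and 2 higher there (8.91% and 7.65% of all genes), and in DESeq2 8 of 133 were lower and 1 higher (2.18% and 0.174%). Of 129 tested between the deletions, 63 were lower in CD4IKK1Δ and 3 higher (18.5% and 14.8% of all genes). Here 19 passed through CD4NIKΔ alone, 6 of the 63 among them, and 55 of the 63 were among the 101 that passed in each group. The 51 comprised 16 of 45 genes of replication and S phase (*Pola1*, *Prim1* and *Fen1*, of primer synthesis and flap removal, among them), 19 of 52 of mitosis, 11 of 23 of G1 cyclins, CDKs and the E2F-RB axis, and 5 of 17 CDK inhibitors and antiproliferative genes. *Cdk4*, the G1 kinase of the D cyclins, had 67.5, 71.9 and 69.1 CPM in CD4NIKΔ, 22.2, 22.4 and 24.7 CPM in CD4cre and 16.1, 25.9, 23.0, 20.8 and 18.1 CPM in CD4IKK1Δ. CD4NIKΔ was apart from the rest, and CD4IKK1Δ was spread around CD4cre (log2 fold change 1.57 in CD4NIKΔ, FDR 0.00422, and -0.15 in CD4IKK1Δ, FDR 0.832).

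The D cyclins, which couple growth signals to CDK4 and CDK6, did not move together. *Ccnd3* had 453, 668 and 601 CPM in CD4NIKΔ, 203, 161 and 119 CPM in CD4cre and 22.9, 26.7, 80.6, 71.0 and 47.7 CPM in CD4IKK1Δ (log2 fold change 1.82 in CD4NIKΔ, FDR 0.00483, and -1.69 in CD4IKK1Δ, FDR 0.123, DESeq2 adjusted p = 0.000805). *Ccnd2* had 317, 696 and 559 CPM in CD4NIKΔ, 227, 306 and 217 CPM in CD4cre and 216, 213, 219, 215 and 204 CPM in CD4IKK1Δ, and was higher in CD4NIKΔ than in CD4cre (log2 fold change 1.05, FDR 0.0384). *Ccnd1* had 84.7, 49.1 and 38.6 CPM in CD4NIKΔ, 118, 108 and 134 CPM in CD4cre and 183, 167, 146, 167 and 150 CPM in CD4IKK1Δ. It was lower in CD4NIKΔ than in CD4cre (log2 fold change -1.08, FDR 0.0392) and higher in CD4IKK1Δ than in CD4NIKΔ (1.51, FDR 0.000298), and 0.44 in CD4IKK1Δ against CD4cre gave an FDR of 0.125. The calls of *Ccnd1* and *Ccnd2* against CD4cre were lost when a single library was left out, whichever of CD4cre replicates 1 to 3 or CD4NIKΔ replicates 2 and 3 it was, and both signs turned with the Pan T score as a covariate (0.61 and -0.58). That of *Ccnd2* was also lost with library size alone (0.92, FDR 0.0547) and with upper-quartile factors (0.93, FDR 0.0596). The 10 neuronal markers stood in the same order of groups as *Ccnd1*, all 10 lower in CD4NIKΔ than in CD4cre and 7 of them called. Their part in the result was not tested.

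Among the CDK inhibitors and antiproliferative genes, *Btg1*, *Tob2*, *Foxo1*, *Ccng1* and *Ccng2* were higher in CD4NIKΔ than in CD4cre and *Cdkn1c* was lower. *Cdkn1b* (p27, which holds cells in G1) had 42.1, 55.5 and 63.2 CPM in CD4NIKΔ, 48.9, 41.0 and 29.7 CPM in CD4cre and 6.02, 6.50, 10.3, 23.0 and 5.26 CPM in CD4IKK1Δ. The log2 fold change was 0.41 in CD4NIKΔ (FDR 0.292) and -1.96 in CD4IKK1Δ (FDR 0.0946, DESeq2 adjusted p = 0.00217), both against CD4cre, and -2.38 between the deletions (FDR 0.000920). With edgeR the second was called when 10 counts were required in every library (FDR 0.0413) and without CD4IKK1Δ replicate 4 (FDR 0.0277). *Cdkn1a* (p21) had 79.4, 95.8 and 94.6 CPM in CD4NIKΔ, 160, 63.8 and 81.6 CPM in CD4cre and 30.7, 25.7, 67.1, 28.9 and 56.5 CPM in CD4IKK1Δ. It gave -0.20 (FDR 0.695), -1.29 (FDR 0.165) and -1.10 (FDR 0.0242) in the same 3 comparisons. The last call was lost without any 1 of CD4IKK1Δ replicates 1, 2 and 4 and CD4NIKΔ replicates 2 and 3, without CD4IKK1Δ replicates 1 and 2 together (-0.82, FDR 0.109), and with other scaling (-0.87 with upper-quartile factors, FDR 0.058, and -0.98 with library size alone). The second was called in DESeq2 (adjusted p = 0.0159) and was -0.79 (FDR 0.554) without CD4cre replicate 1. *Tob2*, an antiproliferative gene, had 119, 286 and 284 CPM in CD4NIKΔ, 115, 105 and 99.9 CPM in CD4cre and 30.8, 43.6, 52.9, 51.3 and 44.7 CPM in CD4IKK1Δ. It had the smallest FDR of these 137 genes in CD4IKK1Δ against CD4cre (log2 fold change -1.25, FDR 0.0551) and was called there in DESeq2 (adjusted p = 1.623e-07), with all 11 libraries in the fit (FDR 0.0469), with other filters (FDR 0.00722 and 0.0146), without CD4IKK1Δ replicates 1 and 2 together (-1.11, FDR 0.0409) and without replicate 1 (FDR 0.0334) or replicate 4 (FDR 0.0414). *Btg2*, another gene of this family, had 904, 775 and 1172 CPM in CD4NIKΔ, 725, 333 and 330 CPM in CD4cre and 54.9, 61.6, 80.8, 171 and 151 CPM in CD4IKK1Δ. It gave a log2 fold change of -2.16 in CD4IKK1Δ against CD4cre (FDR 0.107, DESeq2 adjusted p = 0.00234) and 1.03 in CD4NIKΔ (FDR 0.0588). With edgeR the first was called when all 11 libraries were in the fit (FDR 0.0455). *Hmgb2*, a chromatin protein of dividing cells, had 989, 1063 and 1216 CPM in CD4NIKΔ, 272, 152 and 102 CPM in CD4cre and 7.43, 15.4, 119, 29.2 and 42.6 CPM in CD4IKK1Δ. *Rbl1* (p107) had 43.7, 41.8 and 44.5 CPM in CD4NIKΔ, 10.4, 6.42 and 4.71 CPM in CD4cre and 1.02, 0.0524, 3.86, 1.79 and 2.52 CPM in CD4IKK1Δ. Both were higher in CD4NIKΔ, with log2 fold changes of 2.62 (FDR 0.00439, but 0.0699 with all 11 libraries in the fit) and 2.57 (FDR 0.00466).

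Relative to T cell transcripts the order of the groups was another. The mean log2 CPM of the 53 genes less the Pan T score was -5.65, -5.64 and -5.44 in CD4cre, -4.81, -5.48 and -5.56 in CD4NIKΔ, and -0.41, -3.02, -4.43, -4.78 and -4.62 in CD4IKK1Δ. CD4NIKΔ overlapped with CD4cre, with means of -5.29 ± 0.41 (SD, n = 3) and -5.58 ± 0.12 (n = 3). All 5 CD4IKK1Δ libraries were above both groups, the lowest of them (-4.78) just above the highest CD4NIKΔ library (-4.81), also without replicates 1 and 2, where the Pan T score was lowest. A gene at 0 enters these scores with the value of the prior count, and 8 to 14 of the 53 genes were at 0 in the CD4IKK1Δ libraries. Over the 16 genes with 10 or more counts in every library, the difference between CD4NIKΔ and CD4cre was -0.33 in place of 0.29. The 15 markers of macrophages, monocytes and dendritic cells summed to 479.6 to 1946 CPM in CD4cre, 103.1 to 272.3 in CD4IKK1Δ and 917.8 to 1179 in CD4NIKΔ, with *Itgam* at 0 in CD4cre. Of 13 tested, 7 were lower in CD4IKK1Δ than in CD4NIKΔ, as were 4 of 7 erythroid and 2 of 10 kidney tubule markers. Of 7 glia markers tested, 4 were higher there, and in these sets 0 were called the other way. The part of these markers in the result was not tested.

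**Figure D5:**
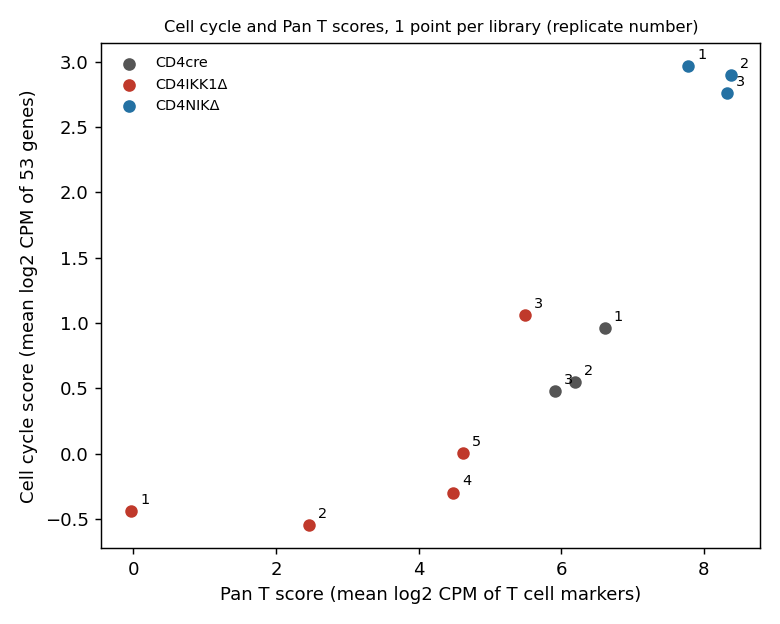
Mean log2 CPM of the 53 genes (y axis) against the Pan T score (x axis), 1 point per library. The CD4NIKΔ libraries lie at upper right (Pan T score 7.78 to 8.38, cell cycle score 2.76 to 2.96), CD4cre at 5.92 to 6.61 and 0.48 to 0.96, and CD4IKK1Δ from -0.03 to 5.49 and -0.55 to 1.06.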

How the data were processed

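Renal CD4+ T cells of 3 CD4cre, 5 CD4IKK1Δ and 3 CD4NIKΔ mice were sequenced, 1 library per mouse, and grouped by the genotype of the labels. The authors trimmed reads with Trimmomatic, assigned them with kallisto and deposited estimated counts per gene symbol, without normalization. kallisto divides reads shared by several transcripts among them, and in each library 35.3% to 41.8% of the values had decimals. The paper names GRCm39 and the submitters' processing notes mm10, and whether the build changes the estimated counts was not tested. Counts were rounded, filtered (edgeR's expression filter), normalized by TMM and compared over all genes by a quasi-likelihood F test with robust dispersions (edgeR 4.0.16 in R 4.3.3, FDR after Benjamini and Hochberg). Genes with an FDR under 0.05 and more than 2-fold difference were called, and "higher" and "lower" are used for called genes or for levels. Standard errors were taken from the F statistic. Each comparison with CD4cre used its own libraries, and that of the deletions all 11. Scores are means of log2 CPM (prior count 2). Of the 55 pairs of libraries, 0 were identical. The tests were checked on simulated data.

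The 53 genes, their roles, the other 137 genes and the marker lists were chosen with earlier results of these data known. Values in every library, for some as a range or maximum, are given for a fixed set of well-known members. They are also given, per comparison, for the 3 members with the smallest FDR and the highest and lowest fold change. Of the other cell cycle genes, they are given for D cyclins, *Cdkn1a*, *Cdkn1b* and the 3 with the smallest FDR. Further members were chosen for mention after their values were seen. Promoter stretches were matched exactly to GRCm39 and placed by GENCODE release M39. Alternatives were DESeq2 1.42.0, RLE, upper-quartile and no normalization factors, other filters, other libraries in the fit, a fit that is not robust, no fold threshold, another prior count, the replicate number as a block, the Pan T score as a covariate and leaving out each library. Leaving out CD4IKK1Δ libraries 1 and 2 was added after seeing the data.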

Additional observations from a re-analysis of the deposited data

Results flagged for a closer look

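Of 49 gene or group levels examined in the 5 CD4IKK1Δ libraries, 6 had 1 library farther from the others than Dixon's 95% limit (0.710 of the range). With independent, normally distributed values, chance alone passes this limit in about 1 in 20 such groups. That rate does not hold for *Mcm6*, *Cdca5* and *Cdca3*, which were at or near 0 counts in all but 1 of these libraries. Replicate 3 was the highest for *Cdca3* (1.1 log2 CPM), for *Cdca5* (0.17), for the mean log2 CPM of nucleotide supply and the replication fork (3.0) and for that of the passenger complex, checkpoint and kinetochores (0.92). Replicate 4 was the highest for *Esco2* (0.99) and replicate 1 for *Mcm6* (0.25).

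The test of CD4IKK1Δ against CD4NIKΔ is the test of the difference between the effects of both deletions against the shared CD4cre libraries, and it passed for 21 of the genes described by the fixed rule. Among these and the further genes below, *Cdk1*, *Ccnb1*, *Ccnb2*, *Aurkb*, *Cdc6*, *E2f8*, *Plk1*, *Cdca3*, *Bub1* and *Cdca5* passed the filter through CD4NIKΔ alone, which favours their direction, and they are not read as support. Of the 53 cell cycle genes the 21 held *Top2a* (log2 fold change -3.49), *Cdk1* (-4.42), *Ccnb1* (-3.76), *Ccnb2* (-4.90), *Ccna2* (-4.14), *Mcm2* (-3.73), *Mcm5* (-3.40), *Pcna* (-1.55), *Tyms* (-2.92), *Tk1* (-3.50), *Aurkb* (-4.64), *Mcm4* (-3.10), *Cenpa* (-3.56) and *Cdc6*. The fitted value of *Cdc6* (-10.89) is set by the prior count, since all 5 CD4IKK1Δ libraries had 0 counts, and the bound is at least 76.1-fold lower. Of the other cell cycle genes, *Ccnd3* (-3.52), *Ccnd2* (-1.29), *Cdkn1a* (-1.10), *Cdkn1b* (-2.38), *Cdk4* (-1.73) and *Tob2* (-2.36) were lower in CD4IKK1Δ and *Ccnd1* (1.51) was higher. The call of *Cdkn1a* was lost in several alternatives, such as without CD4IKK1Δ replicates 1 and 2 (-0.82, FDR 0.109). Outside the rule it also passed for the members *Cdt1* (-3.52), *Kif23* (-2.40), *E2f8*, *Plk1*, *Cdca3*, *Bub1*, *Cenpf*, *Spc25*, *Tpx2*, *Kif11* and *Cdca5*.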

How the results depend on the processing

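The depth limits what can be said of genes near the floor, and 8 to 14 of the 53 genes were at 0 in each CD4IKK1Δ library. The cause of the changes below was not tested. Where no share of all genes is given, a change particular to the members cannot be told from a general one. Of the 53 genes, those called in CD4NIKΔ against CD4cre (29) were 11 with all 11 libraries in the fit, 0 with the Pan T score as a covariate and 14 to 29 when a library was left out. Called in CD4IKK1Δ against CD4NIKΔ (25) were 12 with 10 counts required in every library, 3 with the covariate and 18 to 31 when a library was left out, and in CD4IKK1Δ against CD4cre (0) 2 each in DESeq2, with 10 counts in every library and with all 11 libraries. Of the other 137 genes, those called in CD4NIKΔ against CD4cre (53) were 35 with all 11 libraries, 0 with the covariate and 19 to 54 when a library was left out (29 without CD4cre replicate 2, 21 without CD4cre replicate 3, 28 without CD4NIKΔ replicate 2, 19 without CD4NIKΔ replicate 3). In CD4IKK1Δ against CD4NIKΔ (66) they were 2 with the covariate. In CD4IKK1Δ against CD4cre (0) they were 9 in DESeq2, 2 with 10 counts in every library, 2 with all 11 libraries, 1 with 1 count in any library, 1 without replicates 1 and 2, and 0 to 2 when a library was left out (1 without CD4IKK1Δ replicate 1, 2 without replicate 4).

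The median log2 fold change of the members was -0.30 in CD4IKK1Δ against CD4cre (0.39 with the covariate, -1.02 to -0.14 when a library was left out), 2.30 in CD4NIKΔ against CD4cre (2.06 with the covariate, 2.01 with 10 counts in every library) and -3.03 between the deletions (-1.22, -2.09, and -3.64 to -2.77 when a library was left out). The difference in mean log2 CPM of CD4NIKΔ and CD4cre (2.21) was 2.45 with a prior count of 0.5 and 1.59 over the 16 members with 10 counts in every library. Over these the difference of the deletions (-2.92) was -2.22, and that of CD4NIKΔ and CD4cre less the Pan T score (0.29) was -0.33.

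Deviations of same-numbered libraries correlated between -0.113 and 0.0895. Differently numbered libraries were not compared, so whether the replicate numbers pair the libraries cannot be told from these values. With the replicate number as a block, 21 of the 53 genes (29 without it) and 29 of the other 137 (53) were called in CD4NIKΔ against CD4cre, 22 of the 53 (25) between the deletions and 0 (0) in CD4IKK1Δ against CD4cre, where the median was -0.95. The block turned the sign of *E2f1* (-3.47) and *Mki67* (-0.30) in CD4IKK1Δ against CD4cre and of *Birc5* (-0.36) and *Rrm1* (-0.26) between the deletions. With it the calls of *Ccnd1* (FDR 0.0632) and *Ccnd2* (FDR 0.061) in CD4NIKΔ against CD4cre were lost. So was that of *Cdkn1a* between the deletions (FDR 0.0503).

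Pan T scores did not overlap between any groups, so fits with this covariate do not separate genotype from T cell content. With the covariate, the log2 fold change in CD4IKK1Δ against CD4cre was 1.00 for *Top2a*, 0.38 for *Cdk1*, 0.89 for *Ccnb2*, 0.79 for *Mcm5*, 0.12 for *Rrm1* and 0.25 for *Aurkb*. In CD4NIKΔ against CD4cre it was -0.94 for *Ccne2*, -0.50 for *Mcm2*, -2.75 for *Mcm6*, -1.65 for *Birc5*, 0.61 for *Ccnd1*, -0.58 for *Ccnd2* and -1.27 for *Cdkn1b*, and between the deletions 0.063 for *Mki67*, 0.29 for *Ccne2*, 1.63 for *E2f1* and 2.16 for *Rrm2*. Without CD4IKK1Δ replicates 1 and 2, values against CD4cre were 0.075 for *Top2a*, 0.088 for *Ccnb2*, 0.20 for *Mcm5* and 0.043 for *Rrm1*. *Mki67* in CD4IKK1Δ against CD4cre was -0.0048 in DESeq2, -0.0050 with RLE and -0.032 with library size alone. Between the deletions *Birc5* was -0.041 in DESeq2, -0.043 with RLE and -0.062 with 10 counts in every library, *Rrm1* was -0.088, -0.091 and -0.11, and *Ccne2* was 0.025 with upper-quartile factors.

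When a library was left out, the values in CD4IKK1Δ against CD4cre ran from -1.85 to 0.31 for *Mki67*, -1.21 to 1.17 for *E2f1*, -0.90 to 0.073 for *Mcm5*, -0.43 to 0.29 for *Rrm1*, -2.02 to 0.50 for *Ccnb1* and -0.27 to 0.73 for *Ccne2*. In CD4NIKΔ against CD4cre they ran from -0.042 to 0.96 for *Ccne2*, -0.42 to 0.28 for *Cdkn1a* and -0.46 to 0.29 for *Rrm1*, and between the deletions from -0.31 to 0.21 for *Rrm1* and -0.11 to 0.26 for *Birc5*. The call of *Mcm2* in CD4NIKΔ against CD4cre was lost without CD4NIKΔ replicate 2 or 3, those of *Ccnb1* and *Ccna2* between the deletions without CD4NIKΔ replicate 1.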
